A study of Mus musculus with 17 samples.

Results

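Elastic fibres give the heart, the arteries and the skin their recoil. Each fibre has a core of cross-linked elastin laid on a scaffold of microfibrils. The microfibrils are built of fibrillin and carry small associated glycoproteins, and the fibulins bridge the scaffold and the core. Tropoelastin is the soluble form of elastin, and lysyl oxidases cross-link it on the scaffold. Most elastin of a mouse is laid down around birth, and in the healthy adult ventricle elastic fibres are found chiefly in the coronary vessels, the endocardium and the epicardium.

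Transcripts of 10 genes of this system were followed, chosen by their known roles and found in the table by their gene identifiers. They were Eln for the core, Fbn1, Mfap2, Mfap5 and Mfap4 for the microfibril, and the fibulins Fbln1, Fbln2, Efemp1, Efemp2 and Fbln5. All 10 were among the 31647 features counted, and all 10 passed the filter on low counts. The samples were hearts of 17 male C57BL/6J (B6) wild-type mice aged 8 to 11 weeks, taken 5 days (5d) after surgery. In 9 mice the left anterior descending coronary artery (LAD) was permanently ligated and RNA came from the infarct zone (IZ). The controls were 8 mice whose LAD was not tied in sham surgery, and their RNA came from the left ventricle (LV). No mouse carried a transgene, the ligation was not reperfused, and whole tissue was used, so fewer cells of a type and less RNA per cell cannot be told apart. The comparison addresses which transcripts differ in infarcted myocardium 5d post-MI.

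Counts came from tags at the 3' end of polyadenylated transcripts, about 1 tag per molecule, so values are not divided by gene length. Levels are in CPM, counts set to a common library size after TMM scaling, a method that evens out composition between libraries. The libraries held 1237675 to 4738307 counts. Infarct zone replicate 1 stood apart: 19.5% of its counts were mitochondrially encoded, against 4.22 to 6.78% in the other IZ libraries and 22.9 to 32.4% in sham. Its 6 cardiomyocyte markers summed to 18992 CPM, against 1578 to 4008 CPM in the other IZ libraries and 47346 to 62929 CPM in sham. Results are therefore given with and without it where it matters.

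Promoter windows of 7 of the 10 genes were found in RefSeq (GRCm38.p6), as the 250 bases before each annotated start. The windows of Fbn1, Fbln2 and Efemp1 are printed here, where the first pair rose in the IZ and Efemp1 did not pass the test. Mfap2, Efemp2 and Fbln5, which also rose, and Fbln1, which did not pass, have windows that are not printed. They are written 5' to 3' on the strand of the gene, and capitals mark matches on either strand to TATAAA (a promoter box), GGGCGG (the letters of Sp1-like factors), TGANTCA (those of AP-1-like factors), CAGAC (those of Smad-like factors) or GGAATG (those of TEAD-like factors). The windows lie at chr2:125506439-125506688 on the minus strand (Fbn1), chr6:91212514-91212763 on the plus strand (Fbln2) and chr11:28852955-28853204 on the plus strand (Efemp1).
Fbn1: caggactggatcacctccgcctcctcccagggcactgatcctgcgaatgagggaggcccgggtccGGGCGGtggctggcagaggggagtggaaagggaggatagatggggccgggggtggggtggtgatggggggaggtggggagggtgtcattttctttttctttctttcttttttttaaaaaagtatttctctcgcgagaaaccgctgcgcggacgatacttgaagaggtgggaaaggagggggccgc
Fbln2: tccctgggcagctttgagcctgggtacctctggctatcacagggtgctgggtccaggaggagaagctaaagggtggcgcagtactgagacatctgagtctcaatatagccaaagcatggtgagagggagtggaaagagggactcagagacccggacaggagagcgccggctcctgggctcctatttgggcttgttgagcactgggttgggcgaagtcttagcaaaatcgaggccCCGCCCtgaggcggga
Efemp1: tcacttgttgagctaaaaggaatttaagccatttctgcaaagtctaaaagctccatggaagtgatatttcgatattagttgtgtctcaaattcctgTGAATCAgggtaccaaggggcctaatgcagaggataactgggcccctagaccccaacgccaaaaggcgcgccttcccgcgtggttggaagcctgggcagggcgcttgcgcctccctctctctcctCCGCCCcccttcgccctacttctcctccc
All 3 windows hold 1 match to GGGCGG, which occurs in 32.7% of the 32851 mouse promoter windows. Of the windows not printed, those of Mfap2 start 2, Fbln1 start 1 and Fbln5 start 2 lack it, and the others hold it. The GC content of the printed windows is 59.2% (Fbn1), 58.8% (Fbln2) and 53.6% (Efemp1), against a median of 52.4% over all windows. The Fbn1 and Fbln2 windows lie within the gene spans given below, which come from another annotation. Only Efemp1, among the 12 windows of these genes, holds TGANTCA, found in 6.75% of all windows. The CAGAC motif, found in 42.2% of all windows, was in the windows of Mfap2 start 2, Fbln1 starts 1 and 2, Efemp2 start 1 and Fbln5 start 2. The windows of Fbln1 overlap. GGAATG (12.6% of all windows) was in 1 window of Mfap2, and TATAAA (12.4%) in none of the 12. These percentages count windows, and some genes have more than 1 window, so they are not shares of genes.

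Most of the elastic fibre genes were higher in the IZ. Of the 10 genes, 8 rose and none fell in edgeR's quasi-likelihood test at an adjusted p under 0.05, while 36.3% of the 12301 genes tested rose and 33.1% fell. In those 8 every IZ library lay above every sham library, which held for 16.6% of the genes tested. The filter asked for a minimum level in at least 8 libraries, and Mfap2 and Efemp2 met it through the IZ, with 0 and 7 sham libraries at that minimum, so their place among the tested genes rested on the IZ. Of the other 8 genes, 6 rose, each with every IZ library above every sham library. The fitted fold changes of the risen genes ran from 4.14 (Fbln5) to 12.5 (Mfap4), and they lay between the 92.0 and 98.5 percentile of the log2 fold changes of all genes tested. Each of the 8 passed in all 26 alternative fits, and without IZ replicate 1 their log2 fold changes were 1.95 to 3.68. Fbln1 and Efemp1 did not pass the test. Scaling by total counts alone, which moved the median log2 fold change of all genes up by 1.09, was the fit in which all 10 genes rose, with Fbln1 0.37 and Efemp1 0.09 above that median. The median log2 fold change was 2.93 over the 10 genes and 0.05 over all genes tested. Summed over the 10 genes, the level was 421 ± 57.1 CPM in sham (n = 8, SD) and 2567 ± 720 CPM in the IZ (n = 9, SD).

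**Figure D1:**
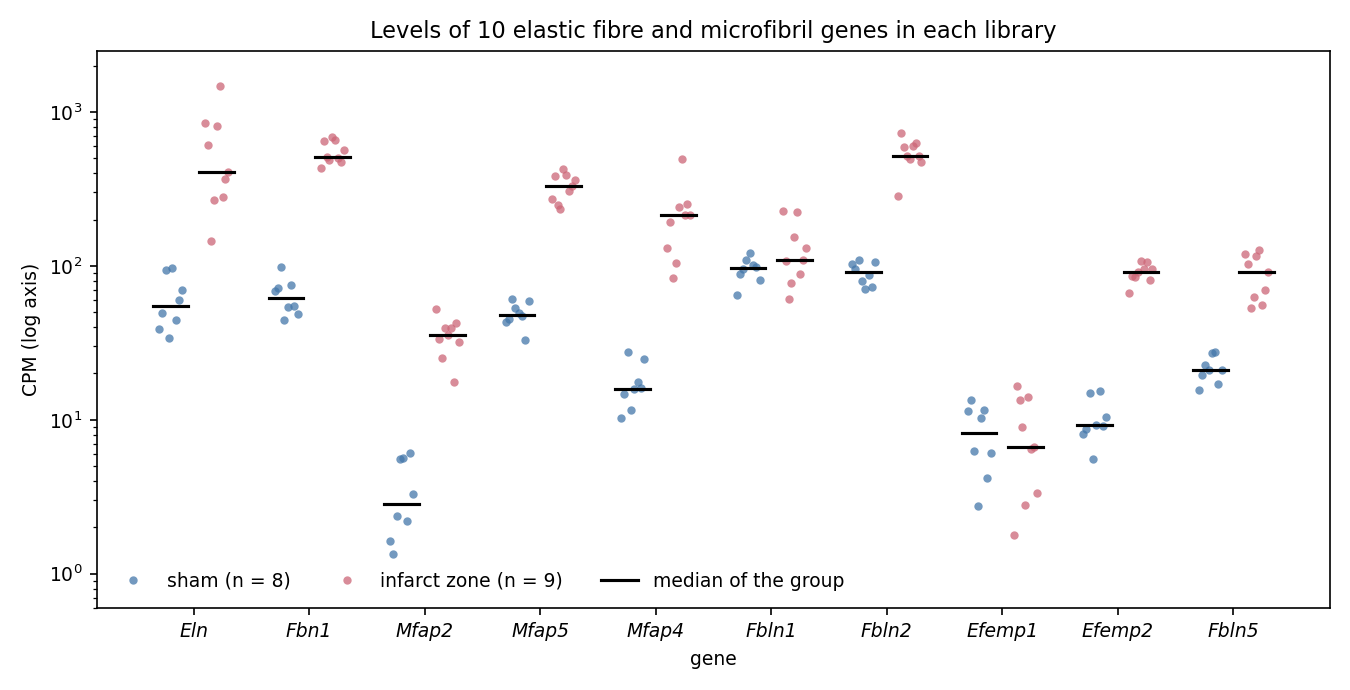
Level of each of the 10 genes in CPM, on a log axis, with 1 point per library for sham (blue, n = 8) and infarct zone (red, n = 9) and a bar at the median of each group. The groups are separate for 8 genes and overlap for Fbln1 and Efemp1.

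Eln (ENSMUSG00000029675, chr5:134702593-134747323 in GRCm38, minus strand) encodes elastin itself. In sham its level had a lowest value of 34.2, a median of 54.5 and a highest value of 97.4 CPM. In the IZ the lowest was 145, the median 410.3 and the highest 1484 CPM. All 9 IZ libraries were above sham, yet they spread over a wider range than any other risen gene, with a coefficient of variation of 71.9% in the IZ and 39.8% in sham. Replicate 6 of the IZ was the highest and replicate 3 the lowest. The mean went from 60.9 ± 24.2 CPM in sham (n = 8, SD) to 580.0 ± 417 CPM (n = 9, SD), a log2 fold change of 3.25 ± 0.38 (SE, adjusted p = 8.15e-08, edgeR). By mean level it moved from rank 2252 in sham to rank 131 in the IZ among all features.

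Fbn1 (ENSMUSG00000027204, chr2:125300594-125507993, minus strand) encodes fibrillin-1, the backbone of the microfibril and the gene mutated in Marfan syndrome. Its sham libraries had a lowest level of 44.2, a median of 61.4 and a highest of 98.0 CPM, and its IZ libraries 434, 509 and 689 CPM in that order. The IZ libraries were far above sham and close to each other, with a coefficient of variation of 16.7%. The log2 fold change was 3.11 ± 0.17 (SE, adjusted p = 6.54e-13, edgeR), with a mean of 64.4 ± 17.6 CPM in sham (n = 8, SD) and 551 ± 92.0 CPM in the IZ (n = 9, SD).

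Of the small glycoproteins of the microfibril, Mfap2 (ENSMUSG00000060572, chr4:141010418-141015984, plus strand) and Mfap5 (ENSMUSG00000030116, chr6:122505845-122529290, plus strand) encode MAGP-1 and MAGP-2, a pair of related proteins that bind fibrillin. Mfap2 was the scarcest of the 10 genes in sham, with 1.34 to 6.10 CPM (median 2.83) from 2 to 16 counts a library. In the IZ it stood at 17.7 to 52.8 CPM (median 35.3), all above sham. Its log2 fold change was 3.23 ± 0.26 (SE, adjusted p = 2.34e-10, edgeR). Mfap5 was an order of magnitude more abundant, at 32.8 to 61.2 CPM in sham (median 48.3) and 235 to 428 CPM in the IZ (median 331), again with no overlap. It rose by a log2 fold change of 2.75 ± 0.16 (SE, adjusted p = 1.37e-12, edgeR).

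Mfap4 (ENSMUSG00000042436, chr11:61485431-61488900, plus strand) encodes a fibrinogen-related glycoprotein that binds fibrillin-1 and tropoelastin. Its level was 10.3 to 27.5 CPM in sham (median 15.96) and 83.6 to 497 CPM in the IZ (median 213.5). All IZ libraries were above sham, with replicate 6 again the highest and replicate 3 again the lowest. It had the largest log2 fold change of the 10 genes, 3.64 ± 0.31 (SE, adjusted p = 5.86e-10, edgeR). The last 89 bases of Mfap4 overlap the end of Mapk7 on the opposite strand. Whether the counting used strand is not given in the sources used here, and Mapk7 was at 2.82 ± 1.80 CPM in sham (n = 8, SD) and 11.3 ± 2.95 CPM in the IZ (n = 9, SD).

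Among the fibulins, Efemp2 and Fbln5 encode fibulin-4 and fibulin-5, which bring tropoelastin, lysyl oxidase and the microfibril together. Efemp2 (ENSMUSG00000024909, chr19:5473954-5482517, plus strand) was at 5.52 to 15.3 CPM in sham (median 9.19) and 67.1 to 108 CPM in the IZ (median 91.0). It was the most even of the 10 genes across IZ libraries, with a coefficient of variation of 14.0%, and rose by a log2 fold change of 3.18 ± 0.16 (SE, adjusted p = 3.20e-13, edgeR). Its last 173 bases overlap Mus81 on the opposite strand, which was at 13.3 ± 3.17 CPM in sham (n = 8, SD) and 7.26 ± 3.73 CPM in the IZ (n = 9, SD). Fbln5 (ENSMUSG00000021186, chr12:101746565-101819055, minus strand) was at 15.7 to 27.7 CPM in sham (median 20.9) and 53.1 to 128 CPM in the IZ (median 90.7). All 9 IZ libraries were above sham, by a log2 fold change of 2.05 ± 0.19 (SE, adjusted p = 2.91e-09, edgeR), the smallest among the 8 risen genes.

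Fbln2 (ENSMUSG00000064080, chr6:91212455-91272540, plus strand) encodes a fibulin found at the border of core and microfibril and in basement membranes. It stood at 70.8 to 109.8 CPM in sham (median 90.7) and at 284 to 729 CPM in the IZ (median 518). Replicate 1 was the lowest IZ library, with 476 CPM in the next, and still above every sham library. The log2 fold change was 2.57 ± 0.17 (SE, adjusted p = 8.18e-12, edgeR) with replicate 1 and 2.62 without it.

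Fbln1 (ENSMUSG00000006369, chr15:85205949-85286535, plus strand) encodes fibulin-1, which binds elastin, fibronectin and proteoglycans. It was the most abundant of the 10 genes in sham, with 64.5 to 121 CPM (median 97.1). The IZ libraries ran from 60.9 to 228 CPM (median 108), with 4 of 9 above every sham library and 1 below every sham library, so the groups overlapped. The log2 fold change of 0.46 ± 0.22 (SE) did not pass the test (adjusted p = 0.0675, edgeR). Replicate 1 was the highest IZ library, and without it the log2 fold change was 0.28. Without IZ replicate 3, 4 or 7 it was 0.58, 0.56 or 0.54 and passed the test (adjusted p = 0.015, 0.027 and 0.038, edgeR). It also passed with upper quartile scaling (0.57, adjusted p = 0.0239, edgeR), with no filter on low counts (0.51, adjusted p = 0.0306, edgeR) and under total counts alone (1.51), so in 6 of 26 alternative fits.

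Efemp1 (ENSMUSG00000020467, chr11:28853204-28926743, plus strand) encodes fibulin-3, a fibulin of connective tissue and the retina. Its level was 2.76 to 13.4 CPM in sham (median 8.26) and 1.79 to 16.5 CPM in the IZ (median 6.65). The groups overlapped, with 2 IZ libraries above and 1 below every sham library. The means were 8.25 ± 3.92 CPM in sham (n = 8, SD) and 8.22 ± 5.37 CPM in the IZ (n = 9, SD). The log2 fold change was 0.12 ± 0.38 (SE, adjusted p = 0.79, edgeR), with a 95% interval from -0.62 to 0.86 by its SE. That interval holds changes of either sign, and the counts were 5 to 21 in a sham library and 5 to 120 in an IZ library.

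**Figure D2:**
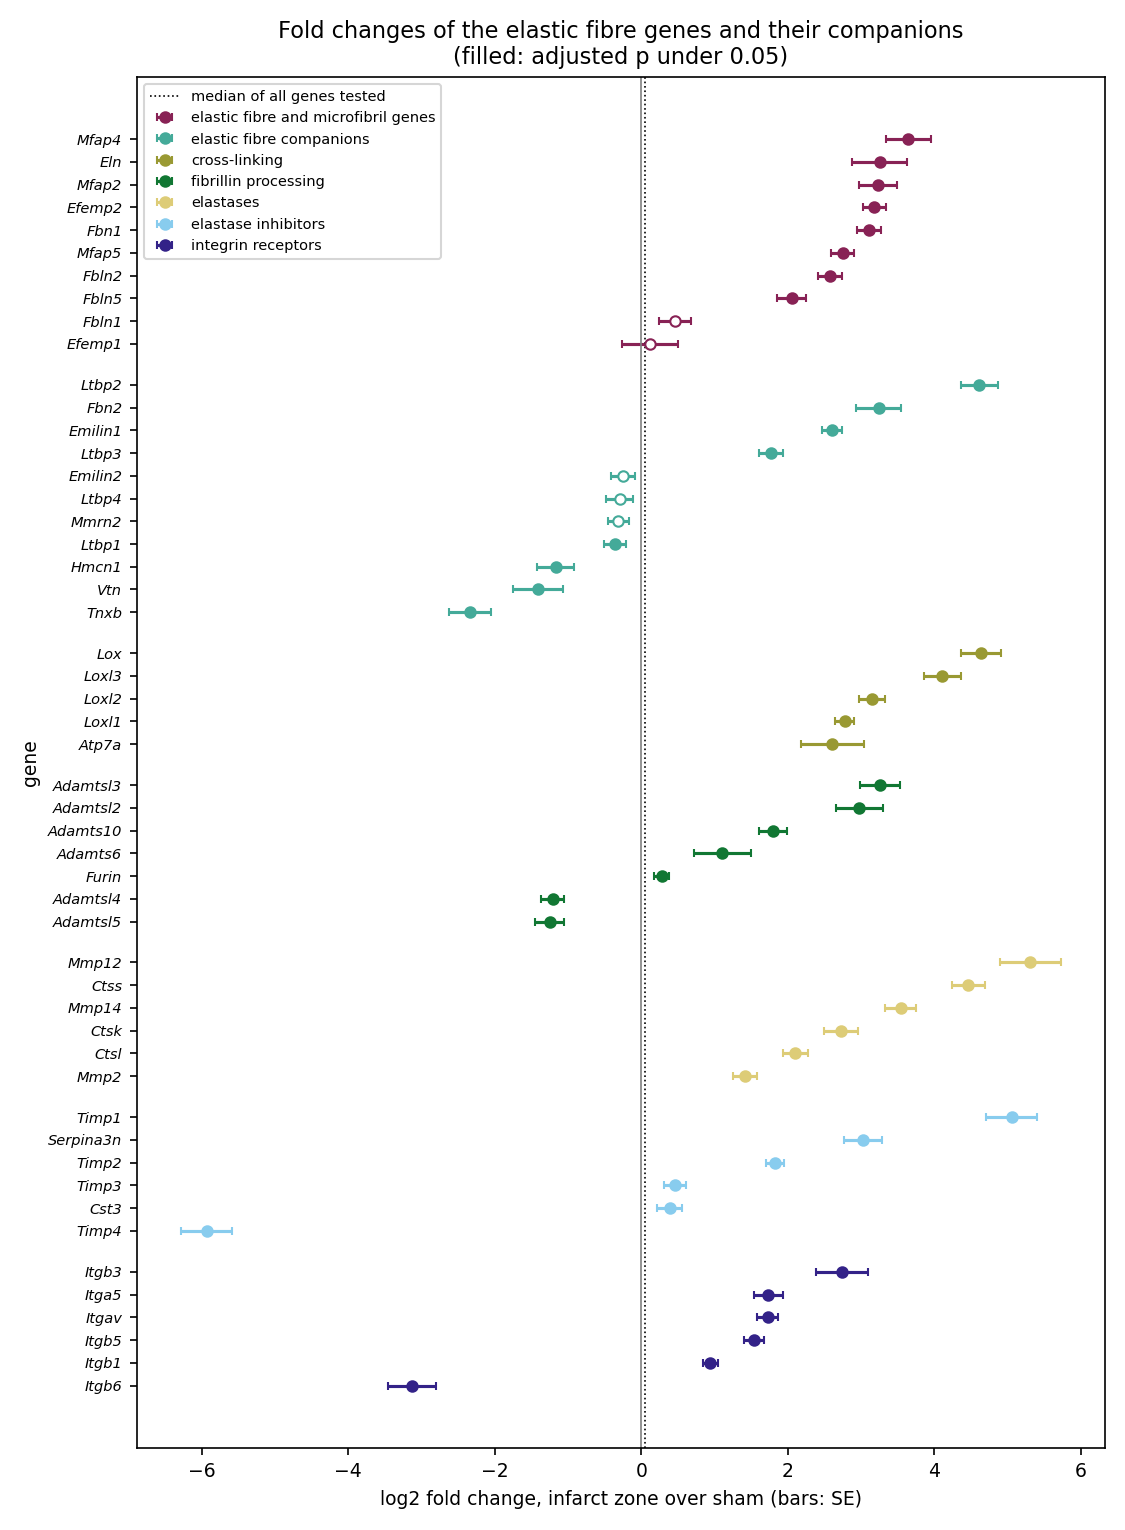
Log2 fold change of the IZ over sham with its SE for the 10 elastic fibre genes and 6 lists of companion genes. Filled points passed the test in edgeR, and the dotted line is the median of all genes tested, at 0.05. Open points among the 10 genes are Fbln1 and Efemp1.

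The order of the levels differed between the groups. In sham it ran Fbln1, Fbln2, Fbn1, Eln, Mfap5, Fbln5, Mfap4, Efemp2, Efemp1 and Mfap2, from high to low. The steps that held in all 8 libraries were Fbln2 over Fbn1, by a mean log2 difference of 0.52 ± 0.32 (n = 8, SD), Mfap5 over Fbln5, by 1.17 ± 0.29 (n = 8, SD), and Mfap4 over Efemp2, by 0.74 ± 0.34 (n = 8, SD). The other neighbours changed places between libraries. In the IZ the order was Eln, Fbn1, Fbln2, Mfap5, Mfap4, Fbln1, Efemp2, Fbln5, Mfap2 and Efemp1. Here Fbln2 was above Mfap5 in all 9 libraries, by 0.70 ± 0.42 on the log2 scale (n = 9, SD), as were Fbln5 over Mfap2, by 1.30 ± 0.41 (n = 9, SD), and Mfap2 over Efemp1, by 2.30 ± 1.26 (n = 9, SD). Eln had the highest mean in the IZ through a few high libraries and was above Fbn1 in 3 of 9.

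Shares of the summed CPM of the 10 genes show the same libraries on another scale. Fbln1 held 22.8 ± 4.47% of the sum in sham (n = 8, SD) and 5.04 ± 1.80% in the IZ (n = 9, SD), with separate ranges. Efemp1 went from 1.98 ± 0.988% to 0.335 ± 0.225%. Fbln5, which rose in level, also held less of the sum in the IZ, at 5.11 ± 0.805% and 3.44 ± 0.685%. The mean shares of the other 7 genes were higher there. Fbn1 held 15.3 ± 3.18% in sham and 22.2 ± 3.69% in the IZ, and Mfap4 4.04 ± 1.0% and 8.0 ± 2.68%. The share of Eln ranged from 9.34 to 21.2% in sham and from 8.0 to 35.9% in the IZ, and that of Fbln2 was 21.7 ± 3.82% and 22.1 ± 7.01%. A share falls when other genes of the sum rise, so a lower share is not a lower level.

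**Figure D3:**
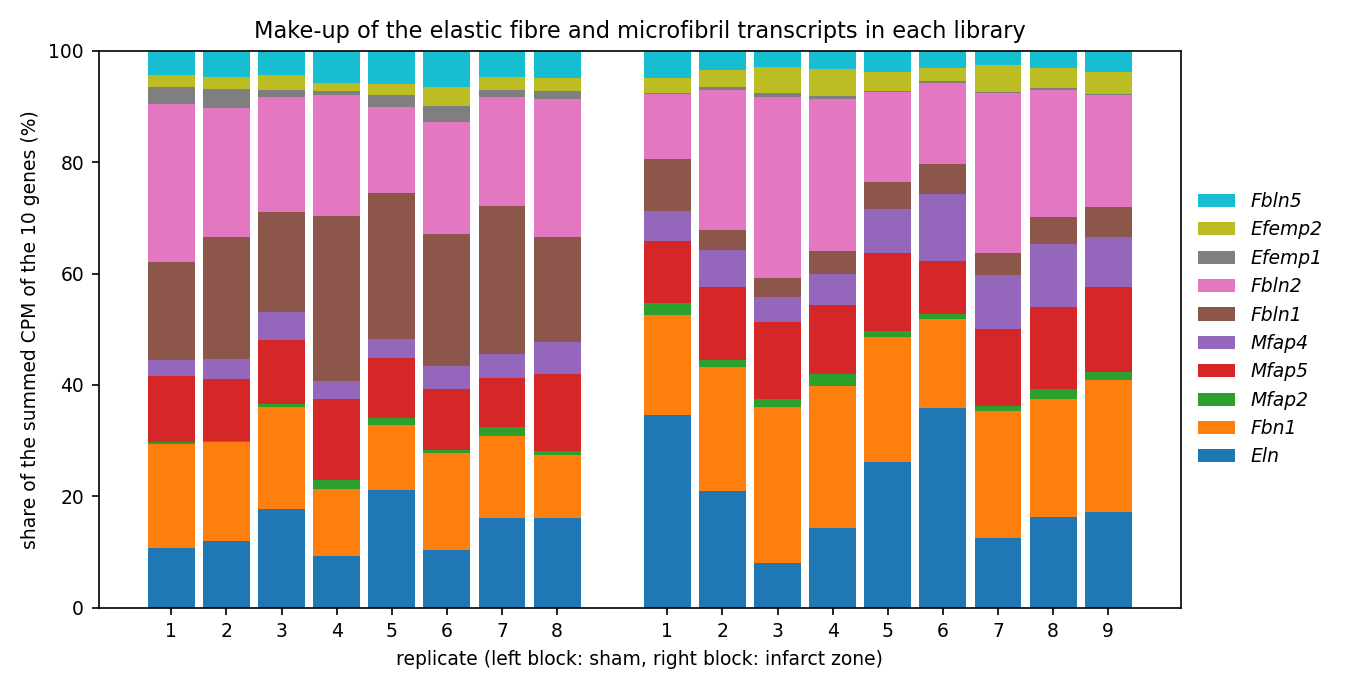
Share of each gene in the summed CPM of the 10 genes, in percent, with 1 bar per library for sham (left) and infarct zone (right). For Fbln1 the bars of sham run from 17.7 to 29.7% and those of the infarct zone from 3.36 to 9.37%.

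Ratios of gene pairs within a library do not depend on how libraries are scaled, apart from the prior count of 1. That count makes ratios of genes with few counts less extreme. With earlier results of these data known, 6 pairs were chosen by role. They were compared by an exact two-sided permutation test over all 24310 divisions of the 17 libraries, with p-values adjusted over the 6. Their differences largely restate gaps between the fold changes given above. The log2 ratio of Fbln1 to Fbln2 was 0.07 ± 0.49 in sham (n = 8, SD) and -2.12 ± 0.91 in the IZ (n = 9, SD). The difference was -2.19 (exact permutation, adjusted p = 4.11e-04), with 8 of 9 IZ libraries below every sham library and IZ replicate 1 within the sham range at -0.32. Leaving that library out gave a difference of -2.41.

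The log2 ratio of Efemp2 to Fbln5 was -1.09 ± 0.41 in sham (n = 8, SD) and 0.09 ± 0.56 in the IZ (n = 9, SD), a difference of 1.18 (exact permutation, adjusted p = 4.11e-04). Again 8 of 9 IZ libraries were beyond every sham library, and IZ replicate 1 was not. The log2 ratio of Efemp1 to Efemp2 differed by -3.31, from -0.39 ± 0.71 in sham (n = 8, SD) to -3.70 ± 1.04 in the IZ (n = 9, SD). All 9 IZ libraries were below every sham library, and the raw p of 4.11e-05 is the smallest these permutations can give (adjusted p = 2.47e-04, exact permutation). Efemp2, a member of each of these pairs, met the filter through the IZ, with 7 sham libraries at its minimum. Both p-values therefore restate its rise and are not separate evidence.

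For the other 3 pairs the test was not passed. The difference in the log2 ratio of Eln to Fbn1 was -0.10 (exact permutation, adjusted p = 0.806), with both IZ replicates 1 and 6 above and 3 IZ libraries below the sham range. That of Mfap5 to Mfap2 was -0.58 (exact permutation, adjusted p = 0.148). It passed without sham replicate 7, at -0.79 (exact permutation, adjusted p = 0.0307). That of Mfap4 to Eln was 0.47 (exact permutation, adjusted p = 0.148), and it passed without IZ replicate 1, at 0.65 (exact permutation, adjusted p = 0.0231).

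**Figure D4:**
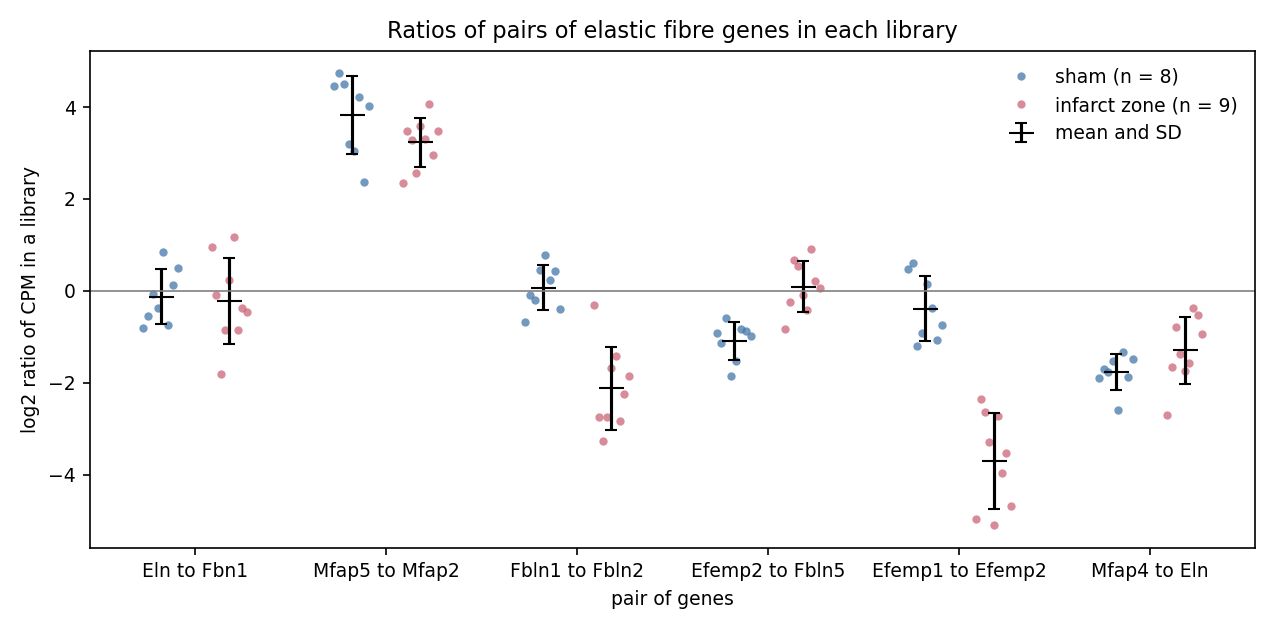
Log2 ratio of CPM for 6 pairs of genes, with 1 point per library for sham (blue, n = 8) and infarct zone (red, n = 9) and the mean with its SD in black. Efemp1 to Efemp2 is the pair whose groups are separate, and for Fbln1 to Fbln2 and Efemp2 to Fbln5 a single infarct zone library lies within the sham range.

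Some pairs of the genes varied together across the IZ mice. Pearson's r of log2 CPM over the 45 pairs had a median of 0.39 in the IZ, from -0.62 to 0.95. Over the 45 pairs in each group, 4 pairs in the IZ and none in sham passed an exact two-sided permutation test of r, adjusted over all 90 tests. At an unadjusted p under 0.05 there were 7 pairs in the IZ and 5 in sham, and with Spearman's rho 3 pairs in the IZ and none in sham passed. That the groups differ in this was not tested.

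Eln, Fbln5 and Fbln1 formed a set in which each pair passed. Eln and Fbln5 had r = 0.95 and rho = 0.98 (n = 9, exact permutation, raw p = 3.03e-05 and 4.96e-05, adjusted p = 0.00273 and 0.00446). Eln and Fbln1 had r = 0.94 and rho = 0.93 (n = 9, exact permutation, raw p = 2.54e-04 and 7.50e-04, adjusted p = 0.0114 and 0.0337). Fbln1 and Fbln5 had r = 0.91 and rho = 0.92 (n = 9, exact permutation, raw p = 6.09e-04 and 0.00131, adjusted p = 0.0183 and 0.0394).

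In all 3 pairs the mice high in one gene were high in the other. Without the 2 libraries farthest from the median of the first gene, r was 0.97, 0.87 and 0.87 in the order of these pairs. Without IZ replicate 1 it was 0.95, 0.96 and 0.91, and each passed. Fbln2 and Efemp1 had r = 0.83 and rho = 0.82 (n = 9, exact permutation, raw p = 0.00141 and 0.0108, adjusted p = 0.0317 and 0.194), with r = 0.68 without the 2 farthest libraries. Without IZ replicate 1 its r was 0.76 and did not pass (exact permutation, adjusted p = 0.19), while that of Mfap4 and Fbln1 then did, at 0.92 (exact permutation, adjusted p = 0.0402).

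**Figure D5:**
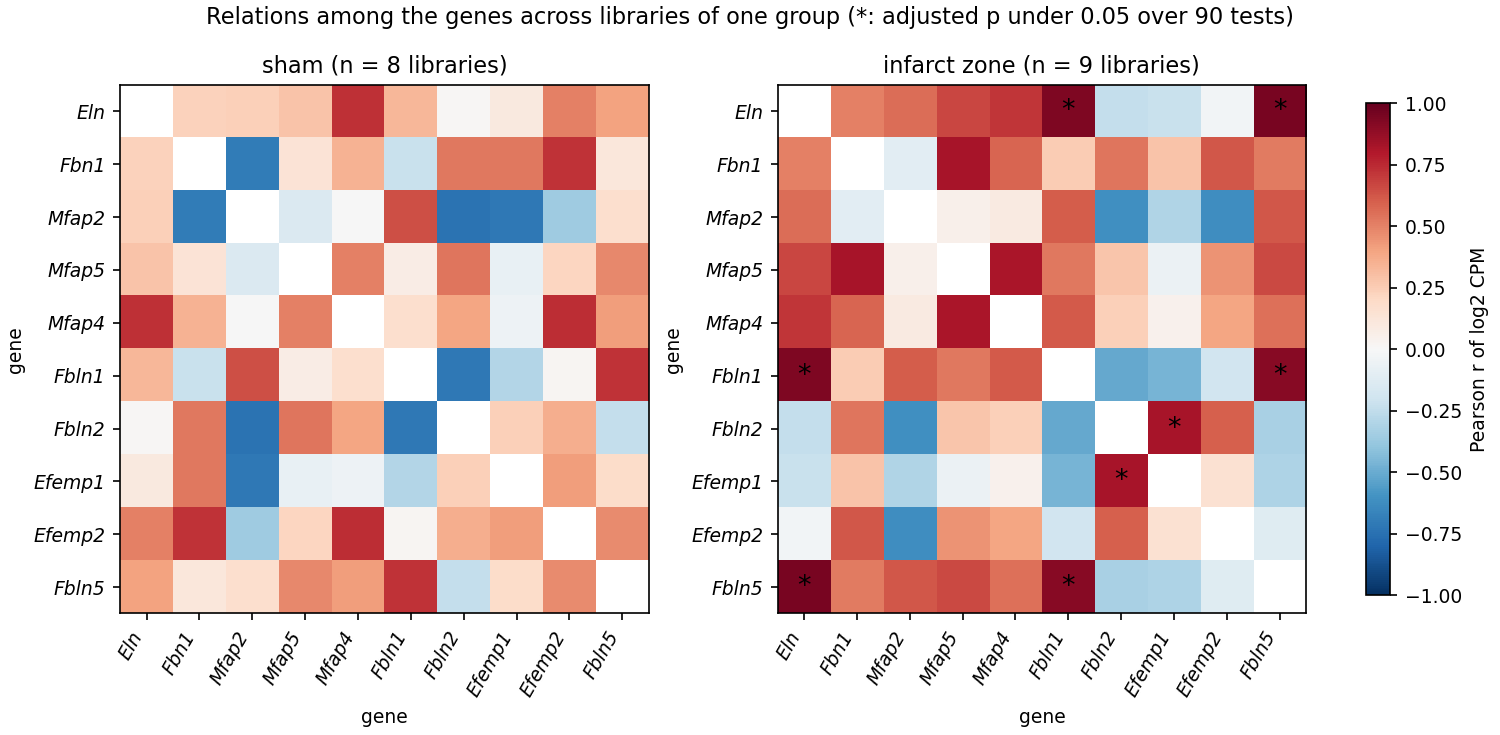
Pearson r of log2 CPM for each pair of the 10 genes across the 8 sham libraries (left) and the 9 infarct zone libraries (right), with stars on pairs that passed the test. The stars mark Eln, Fbln1 and Fbln5 with each other and Fbln2 with Efemp1, all in the infarct zone.

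Genes outside the 10 whose levels followed them most closely were sought across the 17 libraries after the mean of each group was removed, among 9316 genes that averaged 10 CPM or more. For Eln they were C1qtnf2 (r = 0.89), Gxylt2 (r = 0.87) and Crispld2 (r = 0.87), and for Fbn1 P3h3 (r = 0.85), Fut11 (r = 0.83) and Acap2 (r = 0.82). For Mfap4 they were Bgn, the proteoglycan biglycan (r = 0.86), Chpf (r = 0.82) and Il11ra1 (r = 0.81), and for Efemp1 Gm4986 (r = 0.79) and Rad21 (r = 0.76). Within a group r could differ from these values. Il11ra1 with Mfap4 had r = 0.95 in the IZ and 0.33 in sham, and Acap2 with Fbn1 0.51 and 0.94. Bgn with Mfap4 was closer between the groups, at 0.90 and 0.80. These are descriptions, as the highest of many values.

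Of 12 further genes listed as companions of the elastic fibre, 11 were tested, 4 rose and 4 fell. Each share was close to the 36.3% and 33.1% among all genes tested. The median log2 fold change was -0.30 (8 rose and 1 fell under total counts alone). Ltbp2, which binds fibrillin-1 and fibulin-5, rose from 8.58 ± 3.33 CPM in sham (n = 8, SD) to 205 ± 66.6 CPM in the IZ (n = 9, SD), a log2 fold change of 4.61 ± 0.25 (SE, adjusted p = 6.52e-13, edgeR). The other 3 that rose were Fbn2, Emilin1 and Ltbp3. Fbn2 and Ltbp2 met the filter through the IZ, with 0 and 6 sham libraries at its minimum. Tnxb, the matrix glycoprotein tenascin-X, fell from 32.5 ± 13.6 to 6.41 ± 3.63 CPM, by 2.34 on the log2 scale (SE 0.29, adjusted p = 1.65e-07, edgeR). Hmcn1, Vtn and Ltbp1 fell as well, and Ltbp1 did so in 11 of 26 alternative fits. Ltbp4, which takes part in elastin assembly with fibulin-5 and was the most abundant companion by its mean over the 17 libraries, was at 185 ± 21.8 and 151 ± 58.0 CPM and did not pass (adjusted p = 0.16, edgeR). Fbln7 was below the filter.

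All 5 tested genes of cross-linking rose, where 36.3% of all genes tested did. Their median log2 fold change was 3.15, and Loxl4 was below the filter. Loxl3 and Atp7a met the filter through the IZ, with 6 and 0 sham libraries at its minimum, and the other 3 did not depend on it. Lox, which oxidises lysines of tropoelastin and collagen, stood at 27.2 ± 8.70 CPM in sham against 673 ± 259 CPM in the IZ (log2 fold change 4.64 ± 0.28, SE, adjusted p = 2.65e-12, edgeR). Atp7a, the copper transporter that supplies lysyl oxidases, had a fitted log2 fold change of 2.61 ± 0.43 (SE, adjusted p = 1.11e-05, edgeR) against 0 to 7 counts in a sham library.

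Of the 7 tested genes that process or bind fibrillin, 5 rose and 2 fell (none fell under total counts alone). Among all genes tested 36.3% rose and 33.1% fell. The median log2 fold change of the 7 was 1.10. Of the 5, Adamts6, Adamts10, Adamtsl2 and Adamtsl3 met the filter through the IZ. Among the genes that did not depend on it, 1 rose (Furin), and Adamtsl4 and Adamtsl5 fell. Adamtsl3 had the highest fitted value, from 2.27 ± 0.971 to 22.0 ± 7.98 CPM with 1 to 6 counts in a sham library (log2 fold change 3.26 ± 0.28, SE, adjusted p = 5.28e-10, edgeR). Adamtsl5 fell by 1.25 on the log2 scale (SE 0.20, adjusted p = 8.21e-06, edgeR) and Adamtsl4 fell too. Furin, the convertase that cleaves profibrillin and the most abundant of these by its mean over the 17 libraries, had a log2 fold change of 0.28 ± 0.11 (SE, adjusted p = 0.0267, edgeR), called in 22 of 26 alternative fits. Adamts17 and Thsd4 were below the filter.

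Of the proteases that can cut elastin, 6 were tested and rose, where 36.3% of all genes tested did. Their median log2 fold change was 3.13. Mmp12 and Ctsk met the filter through the IZ, with 0 and 4 sham libraries at its minimum, and the other 4 did not depend on it. Mmp12, the macrophage elastase, went from 1.74 ± 1.52 to 66.9 ± 27.6 CPM with 0 to 7 counts in a sham library (fitted log2 fold change 5.31 ± 0.42, SE, adjusted p = 1.46e-10, edgeR). Ctss, cathepsin S, was the most abundant by its mean over the 17 libraries, at 37.1 ± 11.1 and 816 ± 197 CPM, and Mmp2 had the smallest change, 1.42 ± 0.16 (SE, adjusted p = 5.54e-08, edgeR). Mmp9, Prtn3 and Ctsg were below the filter, Ctsg with no count in any sham library. Elane and Mmp7 were looked for and not found among the features counted.

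Of 6 tested inhibitors of such proteases, 5 rose and 1 fell, where 36.3% of all genes tested rose and 33.1% fell. Their median log2 fold change was 1.14. Timp1 rose from 13.2 ± 2.75 to 434 ± 268 CPM (log2 fold change 5.05 ± 0.35, SE, adjusted p = 2.10e-11, edgeR) and Timp4 fell by 5.93 on the log2 scale (SE 0.35, adjusted p = 2.36e-12, edgeR), a fitted value against 0 to 8 counts in an IZ library. Timp4 met the filter through sham. Cst3, cystatin C, was the most abundant and had a log2 fold change of 0.39 ± 0.17 (SE, adjusted p = 0.0473, edgeR), called in 11 of 26 alternative fits. Slpi was below the filter.

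Subunits of integrins that bind the RGD motif of fibrillin-1, Mfap4 or fibulin-5 rose in 5 of 6 tested cases, with a median log2 fold change of 1.63. Among all genes tested 36.3% rose. Itgb3 met the filter through the IZ, with 1 to 5 counts in a sham library, and Itgb6 through sham, with 0 to 13 counts in an IZ library, so their fitted values are read against levels near the floor. Itgb3 had the highest fitted value (2.74 ± 0.36, SE, adjusted p = 3.58e-07, edgeR), Itgb1 was the most abundant (0.94 ± 0.11, SE, adjusted p = 4.00e-08, edgeR), and Itgb6 fell by 3.13 (SE 0.32, adjusted p = 1.14e-08, edgeR), all as log2 fold changes. Itga8 was below the filter.

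Levels of marker genes of cell types differed between the groups, and they do not measure cell numbers. Over all genes tested, 36.3% rose and 33.1% fell. All 6 cardiomyocyte markers fell, Myl2 by 3.97 on the log2 scale (SE 0.51, adjusted p = 3.51e-07, edgeR). Without IZ replicate 1 the log2 fold change of Myl2 was -4.96. All 6 macrophage markers rose, with sums of 371 to 537 CPM in sham and 2131 to 5481 CPM in the IZ, Lyz2 being the most abundant. Of 7 fibroblast markers 5 rose, 1 fell and 1 was not called, with sums of 2190 to 3675 and 8557 to 13489 CPM. Col1a1 was the most abundant by its mean over the 17 libraries. The higher sum came mostly from Col1a1, with means of 349 and 5588 CPM, and Col3a1, with 365 and 3910 CPM. Gsn fell from 1139 to 213 CPM, and Dcn, at 856 and 877 CPM, was not called. Pdgfra, Tcf21 and Dpt rose, to IZ means of 48.8, 36.0 and 323 CPM.

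The 5 markers of activated fibroblasts all rose, with Postn foremost by its mean over the 17 libraries, and summed to 188 to 414 CPM in sham and 2202 to 4190 CPM in the IZ. Of these, Cthrc1, Fap and Tnc met the filter through the IZ. Of 6 smooth muscle and pericyte markers 2 rose and 4 fell (1 under total counts alone). Tagln and Cnn1 rose, and Cnn1 met the filter through the IZ, with 3 sham libraries at its minimum. Myh11, Smtn, Rgs5 and Kcnj8 fell. The sums overlapped, at 425 to 660.4 CPM in sham and 445 to 861 CPM in the IZ. Of 5 endothelial markers 3 fell and none rose, where 1 fell and 3 rose under total counts alone, and the sums were 430 to 839 CPM in sham and 302 to 494 CPM in the IZ. Pecam1, the most abundant of them, was not called. Of 6 mesothelial markers 2 were tested, both through the IZ, and Msln rose, and the sums were 8.84 to 21.5 CPM in sham and 7.18 to 131 CPM in the IZ. No marker in these lists was at 0 throughout a group. The part of these markers in the rise of the elastic fibre genes was not tested.

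Within the 9 IZ libraries, none of the 70 relations of the 10 genes to the 7 summed marker lists passed an exact two-sided permutation test of r adjusted over the 70, with or without IZ replicate 1, and 12 had an unadjusted p under 0.05. The closest was that of Fbn1 to the summed fibroblast markers (r = 0.91, rho = 0.87, n = 9, exact permutation, raw p = 8.60e-04, adjusted p = 0.0602), with r = 0.88 without the 2 farthest libraries and also without replicate 1. In the IZ, Col1a1 and Col3a1 had the highest means in that sum. Fbln2 and the summed cardiomyocyte markers had r = -0.91 (n = 9, exact permutation, adjusted p = 0.102), which was -0.59 without replicate 1.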

How the data were processed

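The deposited values are raw counts per gene with no normalization. The authors made them from 3' end libraries (MACE) whose molecular identifiers served to remove PCR duplicates, mapped to mouse mm10. The submitters' processing notes name bcl2fastq, Bowtie2, HTSeq and DESeq2. The annotation release and the use of strand are not given in the sources used here. All 17 sample columns were used, and groups were taken from the labels, each library being a separate mouse. The labels gave no batch. Of 31647 features, 35 were merged genes, kept in the library sizes and the fit and not named (0.0919 to 0.215% of counts). No 2 libraries were copies (chi-square per degree of freedom at least 2.30), and no gene of the 10 had a near-identical 3' end elsewhere (last 500 bases, BLAST 2.17.0, matches of at least 100 bases at 95% identity).

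Genes passing filterByExpr (minimum count 10) were scaled by TMM and tested with the two-sided quasi-likelihood F-test of edgeR 4.0.16 in R 4.3.3 with no covariates, adjusted by Benjamini-Hochberg over all 12301 genes at 0.05. SEs come from the F statistic. CPM uses TMM-scaled library sizes, and log2 CPM a prior count of 1. The steps were tested on simulated data. Ratios and correlations used exact permutations in SciPy 1.17.1, on Python 3.11.15 with NumPy 2.4.6 and pandas 2.3.3, and Matplotlib 3.10.9 drew the plots. The test across genes was repeated with the Wald test of DESeq2 1.42.0, with total counts alone, upper quartiles or DESeq2 size factors as scaling, other filters (none, or a mean of at least 50 counts), removal of mitochondrially encoded features, thinning to the smallest total, the replicate number as a block, and each library left out in turn. For ratios a prior count of 5 and medians were tried, and for correlations other scalings and a prior count of 5. The relations to summed markers and the correlations without infarct zone replicate 1 were added after seeing the data.

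The 10 genes, the companion and marker lists and the tests were chosen with earlier results of these data known. Named beside the 10 were, per companion list, the tested genes with the highest and lowest log2 fold change and the highest level, per marker list the most abundant, and the 3 genes most correlated with Eln, Fbn1, Mfap4 and Efemp1. The result of 1 gene that met this rule is left out. Other genes of a list named where few moved, the fibroblast markers beside Col1a1 and the smooth muscle and pericyte markers beside Tagln were chosen after their values were seen. Protein sequences were not analysed here. With 3 counts as a floor, levels under 0.414 to 2.35 CPM were not resolved, depending on the library.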

Additional observations from a re-analysis of the deposited data

Results flagged for a closer look

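Among 32 groups of libraries tested for a sample far from the others (Dixon's criterion at 95%, which chance meets in about 1 of 20 groups), 2 stood out. Fbln2 in infarct zone replicate 1 was the lowest of 9 IZ libraries, at 8.15 log2 CPM, with 8.90 in the next. This library is also the one with 19.5% mitochondrially encoded counts and the highest cardiomyocyte marker sum of the IZ, whose part in the Fbln2 value was not tested. The log2 ratio of Mfap4 to Eln in sham replicate 5 was the lowest of 8, at -2.59, with -1.89 in the next.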

How the results depend on the processing

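The 8 risen genes passed in every one of the 26 alternative fits. The number of the 10 called higher was 8 to 9 when each library was left out, 9 with upper quartile scaling and with no filter, and 10 under total counts alone, and none was called lower in any fit. With total counts alone 85.8% of calls were higher, against 52.3% in TMM, and the median of all genes moved up by 1.09. It moved by 0.11 with upper quartile scaling and 0.19 with no filter. A mean of at least 50 counts gave 5239 genes called, with 6734 tested, against 8544, and omission of a library gave 7962 to 8614. For Efemp1 the sign turned when thinned (-0.069) and on omission of sham replicate 4 or 7 (-0.024 and -0.011) or infarct zone replicate 2 (-0.076), with values up to 0.24 over all omissions of a library, none of which passed the test. The difference in the log2 ratio of Eln to Fbn1 ran from -0.27 to 0.10 over omissions of a library and turned positive without sham replicate 5 (0.04) or infarct zone replicate 3 (0.10). That of Mfap5 to Mfap2 ran from -0.79 to -0.45 and that of Mfap4 to Eln from 0.36 to 0.65. The cause was not tested. The replicate numbers are shared between the groups but did not pair the libraries: deviations of same-numbered libraries had r from -0.22 to 0.13, and 1 of 8 numbers matched best with itself. With the replicate number as a block (replicate block) 8 of the 10 genes were called higher and 8079 genes were called in all. Efemp1 and Mfap2 had as few as 5 and 2 counts in a library, and the part of depth in their errors was not tested.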
